A study of Mus musculus with 6 samples.

Results

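The genes described here encode the proteins of the mitochondrial ribosome that carry an Mrpl or Mrps symbol, 76 of the 37755 entries of the expression table. Members were found by symbol alone, with no use of a measured value. The letter l or s in the symbol gave 47 members of the large subunit and 29 of the small subunit. All 76 had a mean of at least 1 FPKM (fragments per kilobase of transcript, scaled to the mapped fragments of the library) and were among the 12461 entries tested, and none was at 0 in any library.

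The 6 libraries comprise 3 of primary cells from the mammary epithelium (MEC) and 3 of JNK-deficient breast tumor cell lines (MEKO), each from a separate preparation or line. Each MEC preparation pooled the glands of 3 to 5 virgin WAPCre+ females of the C57/Bl6J strain, aged 10 to 12 weeks, and was grown on collagen I with EGF, insulin and fetal calf serum. The lines, numbered 199, 233 and 336, came from tumors of Mapk8KO Mapk9KO Cre+ mice of the same strain and passed 2 times on collagen before growth on standard dishes. Both groups carry the *Wap-Cre* transgene, which is active in luminal epithelial cells after lactation, so the virgin MEC donors had not been through the stage that induces it. Genotype, tumor origin and time in culture change together between the groups and cannot be told apart. *Mapk8* was at 19.2 to 25.1 FPKM in MEC and 1.37 to 5.93 FPKM in the lines, and *Mapk9* at 21.5 to 24.4 and 3.07 to 7.62 FPKM.

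The mitochondrial ribosome translates the few proteins that mitochondrial DNA encodes, all of them subunits of the respiratory chain and ATP synthase. Its rRNAs come from mitochondrial DNA, while every protein is encoded in the nucleus, made in the cytosol and imported. The small subunit reads the mRNA, and the large subunit joins amino acids and releases the chain through a tunnel at the inner membrane. Some of the proteins have homologs in bacterial ribosomes, and others are found only in mitochondria.

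The promoters of these genes are known for sites of the factors NRF1, GABP and YY1. RefSeq promoter windows (GRCm38.p6, 250 bases before to 50 after a RefSeq start of the gene) were found for 67 of the 76 members, in 73 windows. Stretches from 120 bases before the start to 30 after it are shown for the 3 members with the smallest adjusted p, for *Mrps18a* and *Mrps26*, which hold several matches, and for *Mrpl20*, with the lowest change. Capitals mark matches to the letters searched on both strands, which were GCGCA then any base then GCGC for NRF1, CCGGAAG for the ETS site that GABP binds, ATGGCGGC for YY1 and CACGTG for the E-box that MYC binds.
*Mrpl1* (chr5:96209995-96210144, plus strand): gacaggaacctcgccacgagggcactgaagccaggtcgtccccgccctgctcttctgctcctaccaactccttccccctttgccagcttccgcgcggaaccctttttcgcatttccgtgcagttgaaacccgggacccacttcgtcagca
*Mrps17* (chr5:129715377-129715526, plus strand): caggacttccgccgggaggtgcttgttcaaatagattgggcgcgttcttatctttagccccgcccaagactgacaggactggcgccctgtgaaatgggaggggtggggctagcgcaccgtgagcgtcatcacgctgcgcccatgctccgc
*Mrpl16* (chr19:11770295-11770444, plus strand): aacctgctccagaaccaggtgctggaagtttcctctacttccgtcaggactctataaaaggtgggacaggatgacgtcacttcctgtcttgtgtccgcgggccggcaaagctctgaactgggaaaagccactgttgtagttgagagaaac
*Mrps18a* (chr17:46110884-46111033, plus strand): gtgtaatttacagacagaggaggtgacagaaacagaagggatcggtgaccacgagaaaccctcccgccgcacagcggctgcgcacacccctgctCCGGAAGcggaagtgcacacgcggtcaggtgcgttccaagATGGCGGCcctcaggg
*Mrps26* (chr2:130563637-130563786, plus strand): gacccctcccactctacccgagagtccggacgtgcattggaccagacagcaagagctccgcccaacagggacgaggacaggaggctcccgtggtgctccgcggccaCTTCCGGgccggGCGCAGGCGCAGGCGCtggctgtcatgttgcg
*Mrpl20* (chr4:155802758-155802907, plus strand): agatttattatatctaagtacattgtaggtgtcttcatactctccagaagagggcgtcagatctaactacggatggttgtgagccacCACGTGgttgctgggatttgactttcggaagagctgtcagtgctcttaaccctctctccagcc

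The windows of *Mrpl1*, *Mrps17* and *Mrpl16* held none of these letters. *Mrps18a* held the ETS letters from position -26 and the YY1 letters from position 15, where the RefSeq start is 1 and the base before it is -1. This start can differ from that of the gene positions given below, which are from GENCODE. *Mrps26* held the ETS letters on the other strand from position -14, and 2 NRF1 matches that overlap each other from positions -2 and 5. The window of *Mrpl20* held a single E-box, from position -33. Members not shown also held several matches, such as *Mrpl45*, with a higher mean in MEKO, and *Mrpl27*, with a lower one. *Mrps12*, with a lower mean in MEKO, held the ETS letters.

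Over all member windows, the ETS letters were in 24 of 73 (32.9%), against 17.4% of the 11407 windows of tested genes and 8.86% of all 32851 windows. The YY1 letters were in 12 (16.4%), against 4.69% and 2.24%, and the NRF1 letters in 12 (16.4%), against 9.84% and 4.603%. The E-box was in 7 windows (9.59%), close to the 9.99% of tested and 7.15% of all windows, and 3 of these 7 are overlapping windows of *Mrpl2* that share 1 match, so 5 of the 67 genes held it. These shares describe letters in the DNA and say nothing of binding in these cells.

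The question put to the expression values was how the mitochondrial ribosome differed between MEC and each line, and whether its subunits differed alike. No member was called in either direction, which required an adjusted p under 0.05 and a log2 fold change beyond 0.75 (limma on log2(FPKM + 1), Benjamini-Hochberg over all tested entries). Of all tested entries, 2.64% were called higher and 7.26% lower in MEKO, 9.9% in all. Of the members, 3 passed the adjusted p alone, *Mrpl1*, *Mrps17* and *Mrpl16*, all higher in MEKO, and none lower, against 3.03% and 7.46% of all tested entries. No member lay beyond a log2 fold change of 0.75, while 25.2% of tested entries did. At an unadjusted p under 0.05, 21 members were higher (27.6%) and 3 lower (3.95%), against 12.4% and 15.7% of tested entries.

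The members leaned toward higher levels in MEKO by small amounts. The median log2 fold change was 0.24, with quartiles of -0.02 and 0.42, against a median of 0.01 over all tested entries. The change was above 0 for 55 of 76 members (72.4%), against 51.2% of tested entries and 54.0% of those with a mean of at least 5 FPKM. In 30 members (39.5%) all 3 lines lay above all 3 MEC libraries, and in 7 (9.21%) all 3 lay below. Over tested entries these shares were 18.5% and 18.7%, and over the 9216 entries with a mean of at least 5 FPKM they were 20.6% and 16.7%. With 3 libraries against 3, groups that do not overlap give the smallest p an exact two-sided permutation test allows, 0.1.

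**Figure D1:**
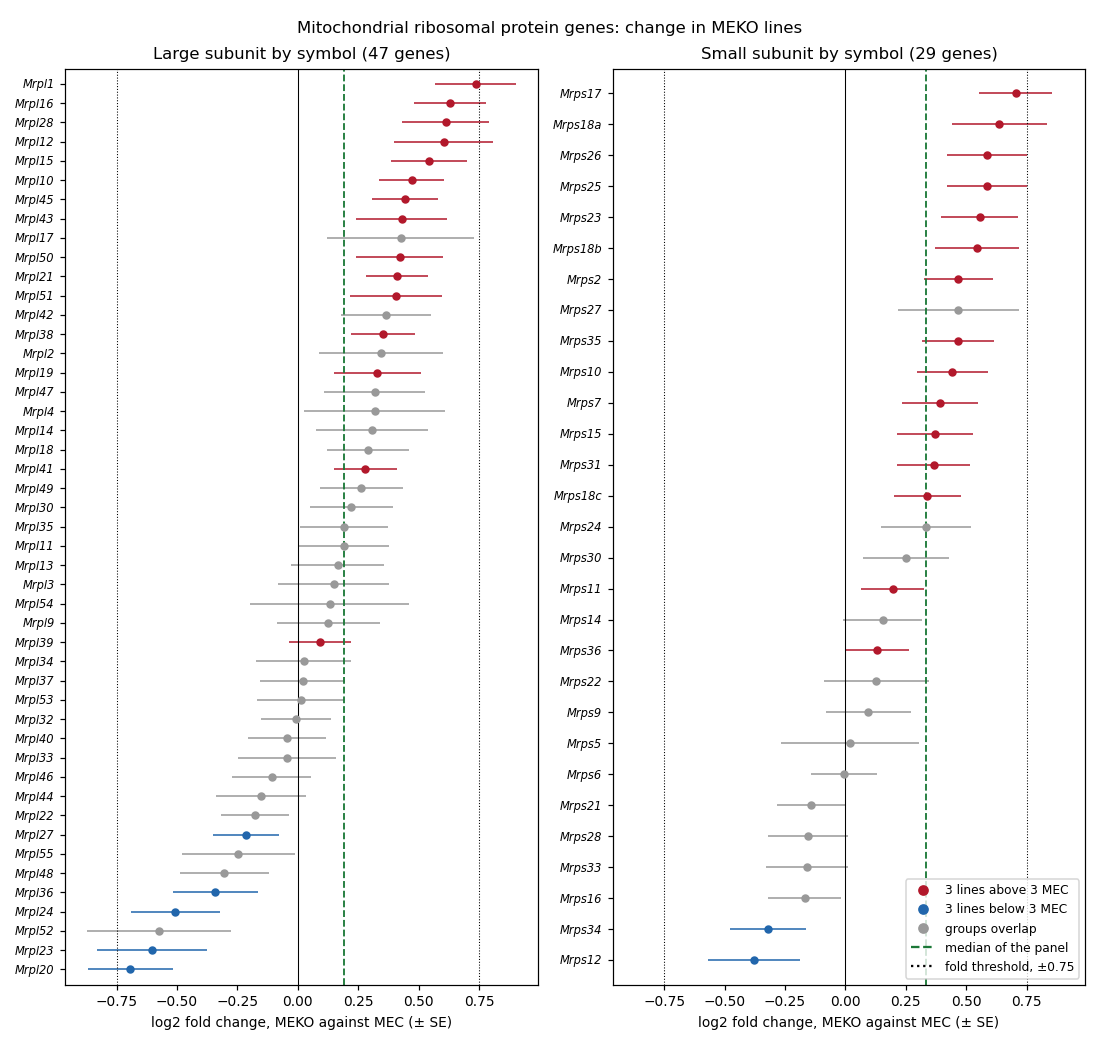
Each point is the log2 fold change of a mitochondrial ribosomal protein gene in MEKO against MEC (x axis) with its standard error, for 47 large and 29 small subunit members by symbol, coloured by whether the 3 lines lay above, below or across the 3 MEC libraries. No point is past the dotted lines at a change of 0.75 in either direction, and the dashed medians are at 0.19 for the large and 0.34 for the small subunit.

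Summed over members, the mitochondrial ribosomal protein mRNAs came to 3058, 3168 and 2848 FPKM in MEC and to 3377, 3449 and 3388 FPKM in lines 199, 233 and 336. The lines lay above every MEC library, and their mean of 3404 ± 38.8 was 1.13 times the MEC mean of 3025 ± 163 (SD, n = 3). As a share of each library's summed FPKM, the members took 0.479 to 0.559% in MEC and 0.601 to 0.606% in the lines. FPKM is relative to the rest of the library, so these values say nothing of the amount of RNA per cell. In cultures that may mix cell types, more cells of one type and more RNA per cell cannot be told apart.

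The members with the highest change and groups apart belong to both subunits. *Mrpl1* encodes a protein of the stalk through which spent tRNA leaves the large subunit (chr5:96209493-96266727, plus strand, GRCm38). It was at 7.92, 8.43 and 8.06 FPKM in MEC and at 16.3, 14.8 and 11.9 FPKM in lines 199, 233 and 336. All lines were above all MEC libraries, with line 199 the highest, and the log2 fold change was 0.74 (SE 0.17, limma adjusted p = 0.0423). It was 1 of the 3 members of lowest level in the large subunit. Neither it nor *Mrps17* and *Mrpl16* passed the adjusted p when any 1 MEC library was left out, where the share of all tested entries called was also lower, 2.09% to 3.85%.

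*Mrps17* encodes a small subunit protein that binds rRNA (chr5:129715497-129722556, plus strand). Its levels were 52.2, 57.6 and 53.1 FPKM in MEC and 103, 87.5 and 78.2 FPKM in lines 199, 233 and 336. The lines ranked in the same order as for *Mrpl1*, and all were above the MEC range. The log2 fold change was 0.71 (SE 0.15, limma adjusted p = 0.0365).

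*Mrpl16* encodes a protein next to the site of peptide bond formation (chr19:11770391-11774960, plus strand). It was at 18.2, 19.1 and 15.7 FPKM in MEC and at 26.8, 26.2 and 30.7 FPKM in the lines. Here line 336 was the highest, and the lines differed little among themselves. The log2 fold change was 0.63 (SE 0.15, limma adjusted p = 0.0486).

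*Mrpl28*, a large subunit protein with a bacterial homolog (chr17:26123500-26126613, plus strand), was at 35.0, 36.2 and 33.3 FPKM in MEC and 58.2, 42.7 and 62.5 FPKM in the lines. *Mrps18a* (chr17:46110986-46128910, plus strand) was at 33.2, 35.1 and 32.8 FPKM in MEC and 56.1, 40.8 and 64.9 FPKM in the lines. For both genes line 233 was the lowest of the lines and still above MEC. Their log2 fold changes of 0.61 and 0.64 missed the threshold (limma adjusted p = 0.0833 and 0.0945).

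*Mrps18a* is 1 of 3 paralogs of the bacterial S18 protein, and its product sits in the large subunit despite its name. The other paralogs, *Mrps18b* and *Mrps18c*, encode small subunit proteins. *Mrps18b* had means of 46.2 ± 8.32 and 67.2 ± 4.09 FPKM in MEC and MEKO (SD, n = 3), and *Mrps18c* of 51.9 ± 2.54 and 66.1 ± 6.33 FPKM. The groups did not overlap for any of the 3, and none passed the adjusted p. An antisense gene shares 30.5% of the exon bases of *Mrps18b*.

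Among members with lower levels in MEKO, *Mrpl20* had the lowest log2 fold change (chr4:155802878-155809975, plus strand). Its product is a large subunit protein whose bacterial homolog acts early in assembly. It was at 63.3, 70.6 and 57.2 FPKM in MEC and 47.4, 35.0 and 35.3 FPKM in lines 199, 233 and 336. All lines were below all MEC libraries, and the log2 fold change of -0.69 (SE 0.18) just missed the threshold (limma adjusted p = 0.0564).

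*Mrpl23* and *Mrpl24* encode proteins at the exit of the peptide tunnel. *Mrpl23* (chr7:142532686-142540747, plus strand) was at 40.7, 34.5 and 40.6 FPKM in MEC and 23.5, 19.4 and 34.1 FPKM in the lines. Line 336 almost reached the lowest MEC library, and the log2 fold change was -0.60 (SE 0.23, limma adjusted p = 0.147). A processed pseudogene, *Mrpl23-ps1*, is identical to it over 507 bases, so reads of the pair may have been divided between them. The pseudogene was listed at 12.6, 12.6 and 13.7 FPKM in MEC and 9.74, 9.72 and 12.6 FPKM in the lines. *Mrpl24* (chr3:87919506-87923672, plus strand) had means of 59.3 ± 7.54 and 41.6 ± 7.26 FPKM (SD, n = 3; log2 fold change -0.51, limma adjusted p = 0.135), and shares 26.3% of its exon bases with *Rrnad1* on the other strand.

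*Mrps12* and *Mrpl36* complete the members of lowest change with groups apart. *Mrps12* encodes the protein of the decoding centre, where mutations of the bacterial homolog give streptomycin resistance. Its levels were 52.6, 55.9 and 76.1 FPKM in MEC and 40.4, 50.6 and 49.0 FPKM in the lines. The gap between the groups was narrow and 1 MEC library was far above the others (log2 fold change -0.38, limma adjusted p = 0.247). *Mrpl36* had means of 46.8 ± 4.44 and 37.0 ± 6.37 FPKM (SD, n = 3; log2 fold change -0.34, limma adjusted p = 0.256).

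**Figure D2:**
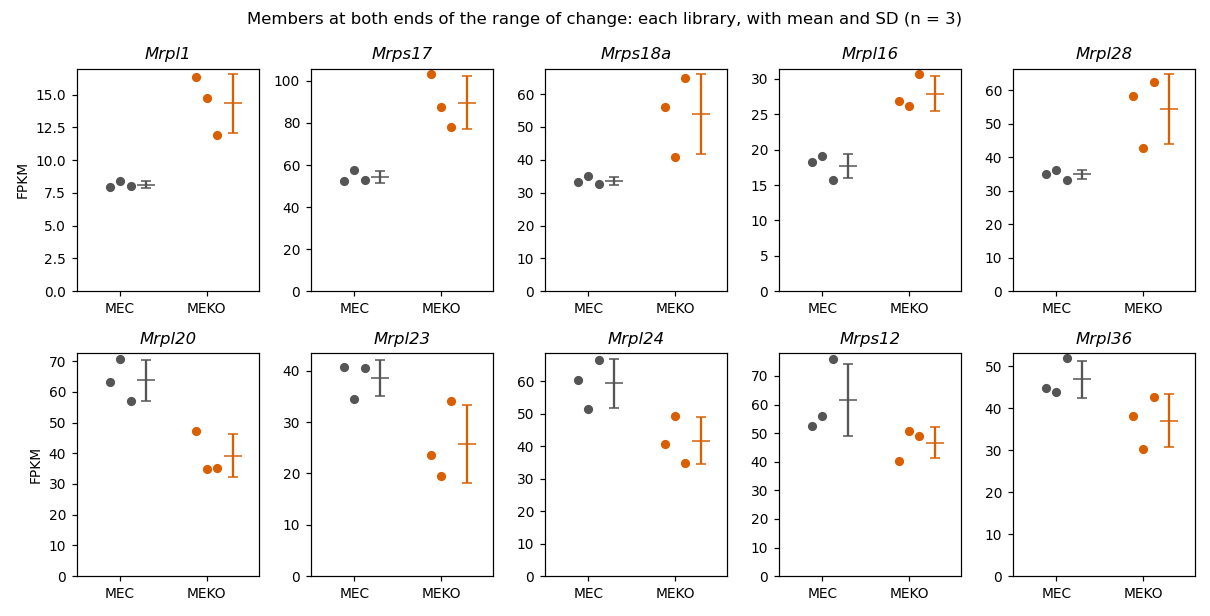
FPKM (y axis, from 0, on its own scale in each panel) of the 5 members with the highest and the 5 with the lowest change among those whose groups were apart, with 3 MEC libraries in grey, lines 199, 233 and 336 from left to right in orange, and mean and SD (n = 3) beside them. *Mrpl1* goes from 7.92 to 8.43 FPKM in MEC to 11.9 to 16.3 FPKM in MEKO, and *Mrpl20* from 57.2 to 70.6 FPKM to 35.0 to 47.4 FPKM.

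The large and small subunits were then compared. The median log2 fold change was 0.19 over the 47 large subunit members and 0.34 over the 29 small subunit members, a difference of -0.14. Between single libraries of the same group, the deviation in this difference had a pooled SD of 0.07. By line, the median log2 ratios to the MEC mean were furthest apart in line 199, at 0.21 for large and 0.39 for small. Line 233 had 0.19 and 0.24, and line 336 had 0.13 and 0.21. In the large subunit 33 of 47 members had a change above 0 (70.2%), with 15 apart higher (31.9%) and 5 apart lower (10.6%). In the small subunit 22 of 29 did (75.9%), with 15 apart higher (51.7%) and 2 apart lower (6.90%). Over tested entries these shares were 51.2%, 18.5% and 18.7%. Members are not replicates, so no test was made over them.

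Sums by subunit gave the same order with overlap in the ratio. Small subunit mRNAs summed to 1021, 1065 and 1019 FPKM in MEC and 1272, 1175 and 1203 FPKM in lines 199, 233 and 336, with no overlap. Large subunit mRNAs summed to 2037, 2104 and 1829 FPKM in MEC and 2105, 2273 and 2185 FPKM in the lines, where line 199 was level with the highest MEC library. The ratio of large to small was 2.00, 1.98 and 1.79 in MEC and 1.65, 1.93 and 1.82 in the lines. The groups overlapped in this ratio, and line 199 alone lay below the MEC range.

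Cryo-electron microscopy has placed some proteins elsewhere than their symbols say. The products of *Mrps18a* and *Mrps30* are in the large subunit, and that of *Mrps36* is now known as a part of the 2-oxoglutarate dehydrogenase complex. *Mrps30* was at 19.8, 18.4 and 22.5 FPKM in MEC and 29.6, 22.3 and 21.4 FPKM in the lines, with overlap. *Mrps36* was at 22.0, 20.4 and 19.7 FPKM in MEC and 22.6, 22.3 and 23.3 FPKM in the lines, a narrow gap with a log2 fold change of 0.13. With members assigned by structure, the medians were 0.22 over 49 large subunit members and 0.34 over 26 small subunit members.

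Members were also divided by evolutionary origin. The 47 members with a bacterial homolog had a median log2 fold change of 0.20, with 16 apart higher (34.0%) and 6 lower (12.8%). The 28 classed as specific to mitochondria had a median of 0.27, with 13 apart higher (46.4%) and 1 lower (3.57%), where the shares of tested entries were 18.5% and 18.7%. Of the latter, the 11 of the small subunit had a median of 0.47. *Mrps18b* was classed with them, although its paralogs were classed as bacterial homologs. With it moved to the bacterial homologs, an alternative chosen after seeing the data, the medians were 0.21 over 48 members and 0.26 over 27, and 0.42 over 10 of the small subunit. Both counts of the small subunit include *Mrps26*, at 27.0, 31.0 and 23.7 FPKM in MEC and 47.0, 38.1 and 38.9 FPKM in the lines, and *Mrps23*, at 29.5, 35.1 and 30.4 and 41.7, 54.3 and 45.6 FPKM. Both had groups apart, with log2 fold changes of 0.59 and 0.56 (limma adjusted p = 0.0756 and 0.0782).

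Members of the large subunit were also read by functional site. The stalk that recruits translation factors is built from the products of *Mrpl10*, *Mrpl11* and *Mrpl12*. *Mrpl10* was at 34.3, 29.2 and 33.7 FPKM in MEC and 45.3, 46.6 and 43.8 FPKM in the lines, and *Mrpl12* at 51.1, 62.7 and 45.3 and 94.2, 86.1 and 64.0 FPKM. Both had groups apart (log2 fold change 0.47 and 0.60). *Mrpl11*, at 11.2, 11.3 and 11.6 FPKM in MEC and 12.2, 11.03 and 16.7 FPKM in the lines, did not. Thus 2 of these 3 were apart higher (66.7%) and none lower, against 18.5% and 18.7% of tested entries.

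Of the 5 proteins around the tunnel exit, *Mrpl23* and *Mrpl24* were apart lower (40%), and *Mrpl45* was apart higher (20%). Over tested entries these shares were 18.7% and 18.5%. The product of *Mrpl45* anchors the ribosome to the inner membrane. It was at 21.1, 21.2 and 20.4 FPKM in MEC and 30.7, 25.97 and 29.98 FPKM in the lines (log2 fold change 0.45, limma adjusted p = 0.0947). *Mrpl22* and *Mrpl47* had log2 fold changes of -0.18 and 0.32, with overlap.

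In level, 72 of the 76 members had a mean between 10 and 100 FPKM. The highest of the large subunit were *Mrpl52*, *Mrpl33* and *Mrpl17*, and of the small subunit *Mrps21*, *Mrps17* and *Mrps18c*. *Mrpl52*, found only in mitochondria, was the highest of all at 188, 192 and 126 FPKM in MEC and 95.1, 166 and 86.4 FPKM in the lines. Lines 199 and 336 were below MEC and line 233 within it, so the groups overlapped (log2 fold change -0.57, SE 0.30). *Mrps21*, next in mean level, was at 130, 157 and 149 FPKM in MEC and 135, 121 and 139 FPKM in the lines, and the ranges of these neighbours overlapped.

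The lowest members were *Mrpl35*, *Mrpl1* and *Mrpl11* of the large subunit and *Mrps31*, *Mrps27* and *Mrps33* of the small. *Mrpl35* had means of 9.41 ± 1.63 and 10.8 ± 0.938 FPKM in MEC and MEKO (SD, n = 3). *Mrps31* had means of 11.1 ± 0.811 and 14.6 ± 1.41 FPKM with groups apart (log2 fold change 0.37, limma adjusted p = 0.177). *Mrps27*, an rRNA-binding protein of the small subunit, was at 28.1 FPKM in line 199 and 15.9 and 18.05 FPKM in the others, against 12.2 to 17.2 FPKM in MEC. *Mrps33* had means of 19.1 ± 1.52 and 17.1 ± 2.61 FPKM with overlap.

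Each line was set against MEC on its own. The median log2 ratio of the members to the MEC mean was 0.28, 0.20 and 0.16 for lines 199, 233 and 336 respectively. Line 199 had 49 members above the MEC range and 20 below, against 40.2% and 39.1% of tested entries. The members' shares were 64.5% and 26.3%. Line 233 had 43 above and 18 below (56.6% and 23.7%, against 37.4% and 37.9%), and line 336 had 41 above and 15 below (53.9% and 19.7%, against 39.2% and 37.4%). The SD of a library's median among MEC was 0.07, and the lines share the same MEC libraries as reference.

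**Figure D3:**
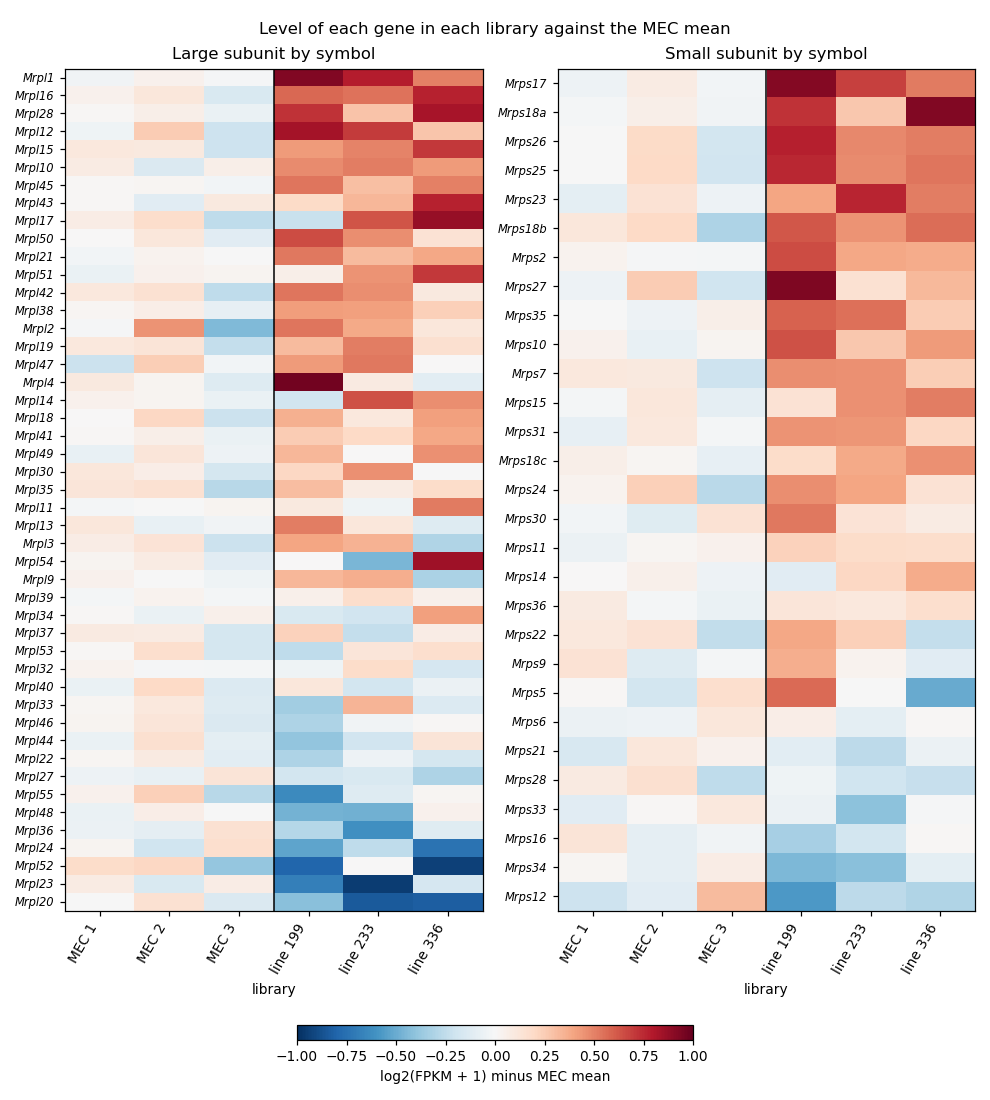
Colour gives log2(FPKM + 1) of each member (rows, ordered by change within each subunit by symbol) in each library (columns) minus the MEC mean, from -1 in blue to 1 in red. The 3 lines right of the black bar are mostly red for members at the top. The change was below 0 for 14 of 47 large and 7 of 29 small subunit members.

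In the small subunit line 199 had the highest median of the lines. For lines 199, 233 and 336 its median log2 ratio was 0.39, 0.24 and 0.21, while the large subunit gave 0.21, 0.19 and 0.13. Line 199 was the highest of the lines for 18 of the 29 small subunit members, line 336 for 9 and line 233 for 2. For the large subunit the counts were 15, 19 and 13 in lines 199, 336 and 233. Over tested entries, line 199 was the highest in 40.0%, line 233 in 27.5% and line 336 in 32.5%. Of all members, line 199 was the lowest line in 19, line 233 in 27 and line 336 in 30, where the shares of tested entries were 35.1%, 33.4% and 31.5%.

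In 13 members (17.1%, against 23.8% of tested entries) the lines lay on both sides of the MEC range. Of these, 11 belong to the large subunit (23.4% of its members) and 2 to the small (6.90%). The widest range among lines was that of *Mrpl54*, a large subunit protein found only in mitochondria, with 36.1, 25.9 and 65.6 FPKM in lines 199, 233 and 336 against 33.3 to 38.1 FPKM in MEC. *Mrpl17*, with 83.01, 150 and 178 FPKM against 81.2 to 110 FPKM in MEC, came next. *Mrps5* ran the other way, with 54.9, 36.5 and 25.6 FPKM against 32.2 to 41.4 FPKM in MEC. The fit's mean over lines hides such differences, since *Mrps5* had a log2 fold change of 0.02.

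The spread within groups was small. The median SD of log2(FPKM + 1) within a group was 0.12 among MEC libraries and 0.22 among lines for members, against 0.17 and 0.32 for entries with a mean of at least 5 FPKM. The 2 sets differ in level, with a median of the mean levels of 36.6 FPKM for members and 19.0 FPKM for those entries.

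Members lie on 17 chromosomes, and the tumor lines carry copy number changes that were not analysed here. Chromosome 11 holds 10 members, of which 6 were apart higher and 1 lower. Chromosome 6 had 4 of 7 apart higher and none lower, and chromosome 17 had 4 of 8 higher and 1 lower. Chromosome 3 had none of 5 higher and 1 lower. The other tested entries of these chromosomes were apart higher and lower in 13.8% and 17.3% (chromosome 11), 18.9% and 20.7% (chromosome 6), 22.0% and 17.9% (chromosome 17) and 13.4% and 25.3% (chromosome 3). On chromosome 5, which holds *Mrpl1* and *Mrps17*, 3 of 4 members were apart higher, and so were 36.3% of its other tested entries, against 9.58% apart lower. After subtracting the median of the other tested entries of the same chromosome in the same line, the members' median ratio was 0.33, 0.20 and 0.17 in lines 199, 233 and 336.

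Other genes of the same route were read from lists. A further 6 mitochondrial ribosomal proteins have symbols outside the Mrpl and Mrps series. Of these, 1 was apart higher (16.7%) and none lower, against 18.5% and 18.7% of tested entries. That gene, *Ptcd3*, was also called higher, as were 2.64% of tested entries. It was at 23.6, 23.1 and 21.9 FPKM in MEC and 51.1, 40.9 and 38.5 FPKM in the lines (log2 fold change 0.89, SE 0.16, limma adjusted p = 0.0207). The others, among them *Dap3* with a log2 fold change of 0.25, had overlapping groups. Of 23 assembly factors tested, 8 were apart higher (34.8%) and 2 lower (8.70%), and 1 was called higher, against 18.5%, 18.7% and 2.64% of tested entries. That was *Wbscr16*, a GTPase exchange factor of ribosome assembly, at 7.59, 6.16 and 7.29 FPKM in MEC and 22.9, 12.2 and 15.9 FPKM in the lines (log2 fold change 1.13, limma adjusted p = 0.0380).

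Of 19 translation and mRNA factors of mitochondria tested, 6 were apart higher (31.6%) and 1 lower (5.26%), against 18.5% and 18.7% of tested entries. *Lrpprc*, which stabilises mitochondrial mRNAs, was called higher, at 15.1, 15.4 and 16.3 FPKM in MEC and 36.7, 28.7 and 28.9 FPKM in the lines (log2 fold change 0.96, limma adjusted p = 0.0164). Its partner *Slirp* was the member of the list apart lower, at 119 to 138 FPKM in MEC and 74.97 to 109 FPKM in the lines (limma adjusted p = 0.140). Of 17 aminoacyl-tRNA synthetases 4 were apart higher (23.5%) and none lower, and of 10 genes of mitochondrial DNA maintenance and transcription 2 (20%) and none. For higher levels both shares are close to the 18.5% of tested entries.

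Of 8 regulators of mitochondrial genes tested, 2 were called higher and 4 were apart higher (50%), against 2.64% and 18.5% of tested entries. *Myc* was at 73.8, 78.4 and 45.3 FPKM in MEC and 138, 147 and 112 FPKM in the lines (log2 fold change 1.03, limma adjusted p = 0.0486). *Esrra*, a nuclear receptor of respiratory genes, was at 15.8, 13.3 and 12.7 FPKM in MEC and 21.4, 32.4 and 32.0 FPKM in the lines (log2 fold change 0.97, limma adjusted p = 0.0357). *Gabpa* had a log2 fold change of 0.43 with groups apart, and *Nrf1* and *Yy1* of 0.33 and 0.12 with overlap. Of 10 genes that mark mitochondrial content, 4 were apart higher (40.0%) and none lower, against 18.5% and 18.7% of tested entries. The chaperones *Hspd1* and *Hspa9* of this list were called higher (log2 fold change 0.86 and 0.83, limma adjusted p = 0.0328 and 0.0302).

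The products of the mitochondrial ribosome serve the respiratory chain, whose nuclear genes were a reference family together with the cytosolic ribosome. The 78 tested respiratory chain and ATP synthase genes had a median log2 fold change of 0.24, with 36 apart higher (46.2%, against 18.5% of tested entries) and 3 lower (3.85%, against 18.7%). Their median ratios were 0.15, 0.27 and 0.41 in lines 199, 233 and 336, the opposite order to the members' 0.28, 0.20 and 0.16. The 76 tested cytosolic ribosomal protein genes had a median of 0.08, with 10 apart higher (13.2%) and 5 lower (6.58%), and ratios of 0.04, 0.13 and 0.02. The difference between families was not tested, since genes are not replicates.

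**Figure D4:**
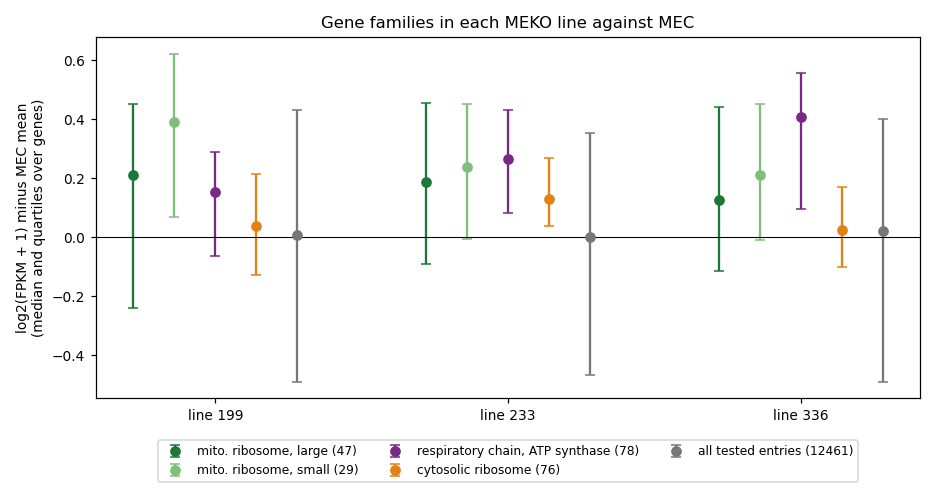
Points give the median and bars the quartiles over genes of log2(FPKM + 1) minus the MEC mean (y axis) for 5 groups of genes in each MEKO line (x axis). The small subunit of the mitochondrial ribosome goes from 0.39 in line 199 to 0.21 in line 336, while the respiratory chain genes go from 0.15 to 0.41.

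The transcripts this ribosome translates are encoded in mitochondrial DNA. *mt-Cytb* was at 2332, 1638 and 2484 FPKM in MEC and 1747, 4089 and 3801 FPKM in lines 199, 233 and 336. An entry that joins *mt-Nd1* and *mt-Nd2* was at 2061, 1741 and 1915 FPKM in MEC and 2072, 3141 and 3701 FPKM in the lines. In both entries lines 233 and 336 were above MEC and line 199 was within the MEC range or just past its upper end. An entry that joins 9 other genes was at 3279, 2387 and 3572 FPKM in MEC and 2835, 4859 and 5244 FPKM in the lines, the same pattern by line. *mt-Nd6* differed, at 1405, 1082 and 1753 FPKM in MEC and 899.6, 1222 and 1177 FPKM in the lines, where line 199 was below MEC and the others within it (log2 fold change -0.35). None of the 4 entries was called.

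Proliferation genes and cell type markers were read beside the members. All 15 proliferation genes, of which none was called, had a change above 0, with a median log2 fold change of 0.74. Among them 6 were apart higher (40.0%, against 18.5% of tested entries), and line 199 was the highest line in 14. *Mki67* was at 17.4, 18.1 and 6.20 FPKM in MEC and 31.8, 26.8 and 25.03 FPKM in the lines. MEC 3, the lowest in *Mki67*, was also the MEC library with the lowest summed level of the members. Their part in the members' values was not tested.

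Of 6 luminal markers, 4 were called lower in MEKO and 5 were apart lower, against 7.26% and 18.7% of tested entries. *Krt8* still stayed at 230 to 539 FPKM in the lines against 1844 to 3406 FPKM in MEC. The basal marker *Krt5* was at 201 to 435 FPKM in MEC, 608 FPKM in line 199 and 1.33 and 15.3 FPKM in lines 233 and 336. Of the 5 basal markers, line 199 was above the MEC range for 3, within it for 1 and below it for 1. Lines 233 and 336 were below the MEC range for all 5. Of the 5 fibroblast markers tested, line 199 was above the MEC range for 4 and below it for 1. Lines 233 and 336 were below that range for all 5. *Col1a1* was at 600 FPKM in line 199, 44.2 to 74.7 FPKM in MEC and 1.08 and 0.566 FPKM in the other lines, while the fibroblast marker *Dcn* was at most 0.366 FPKM in any line. Of the leukocyte markers, *Ptprc* was at most 0.399 FPKM and *Cd3e* at most 0.0408 FPKM in any library, and *Laptm5* was called lower. *Cd68*, a macrophage marker that other cells also express, was at 3.46 to 6.59 FPKM in MEC, 0.771 and 2.73 FPKM in lines 199 and 233 and 23.5 FPKM in line 336. Line 199, which held *Krt5* and *Col1a1*, also had the highest small subunit median. Without it, the small subunit median log2 fold change was 0.27, and the part of cell type was not tested.

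Shared sequence touches many members. The table joins 6 of them with a neighbour, as *Mrps24* with *Urgcp*, *Mrps6* with *Slc5a3*, *Mrps34* with *Nme3*, *Mrpl33* with *Bre*, *Mrpl53* with *Ccdc142* and *Mrpl48* with *D630004N19Rik*, and those values belong to the pair. Of these entries only that of *Mrps34* had groups apart, at 31.0, 28.6 and 32.2 FPKM in MEC and 22.1, 22.7 and 28.6 FPKM in the lines. The joined entries of *Mrps6*, *Mrpl33* and *Mrpl53* had log2 fold changes within 0.05 of 0, and those of *Mrps24* and *Mrpl48* were 0.34 and -0.30 with overlap. Exons of 27 members overlap a gene on the other strand, and 18 have a pseudogene at least 95% identical over at least 200 bases. Over the 34 members with none of these, 16 were apart higher (47.1%) and 2 lower (5.88%), against 18.5% and 18.7% of tested entries. Their median log2 fold change was 0.33. Overlap on the same strand was not a criterion, and *Mrps18c*, which shares 23.2% of its exon bases with *Gm43511*, is among the 34.

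A divergent protein-coding neighbour starts within 1000 bases of 22 members. *Helq*, a DNA helicase gene 29 bases from *Mrps18c*, was the only such neighbour called, with means of 2.75 and 7.19 FPKM in MEC and MEKO (log2 fold change 1.13). Of all tested entries, 9.9% were called in either direction, and the neighbours *Lrrc46* and *Zfp189* were not tested. *Klc4*, 207 bases from *Mrpl2*, had a log2 fold change of -0.77 against 0.34 for *Mrpl2*. Neither gene of that pair passed the adjusted p.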

How the data were processed

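Mammary epithelial cells (3 libraries) and MEKO lines (3 libraries) were compared, with groups taken from the sample labels. The authors trimmed paired-end reads, aligned them to GRCm38 with Bowtie2 and TopHat2 2.0.14 and quantified genes with Cufflinks 2.2.1, per their methods and processing notes, and deposited FPKM values. Whether counting used strand is not given in the sources used here. FPKM carries no read counts, so depth is unknown and no interval was computed. Libraries summed to 557991 to 638365 FPKM.

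Entries were fitted in R 4.3.3 with limma 3.58.1 (empirical Bayes with trend) on log2(FPKM + 1), with a mean FPKM minimum of 1, and adjusted by Benjamini-Hochberg. Fold changes on this scale understate low genes. The fit was tested on simulated data. The members and lists were chosen with earlier results of these data known. The text names the 5 highest and 5 lowest changes with groups apart, the 3 highest and 3 lowest levels of each subunit, the 3 widest ranges among lines, joined entries, members placed elsewhere by structure and called genes of the lists. Other names were chosen after their values were seen. Positions are from GENCODE M21 on GRCm38. Pseudocount, filter, normalization, trend, weights, subunit assignment and each library were varied. P-values measure the spread between these libraries.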

Additional observations from a re-analysis of the deposited data

How the results depend on the processing

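The calls, counts and medians were recomputed in 132 alternatives, of which 115 stayed within the spread between libraries or within 1.5 times the count. Part of the 115 could not move. A different filter or a fit without trend leaves the fold changes of the members, and so their medians, as they were. Another pseudocount cannot alter which groups are apart. With array weights 1 member, *Mrpl20*, was called lower (-0.77), and the medians were 0.12 for the large and 0.27 for the small subunit. The share of all tested entries called was then 15.9%, against 9.9% in the main fit. MEC 1 had a weight of 13.26, and the other libraries had 0.2359 to 2.126. *Mrpl1* was called higher, alone, with a pseudocount of 0.1 (0.80, limma adjusted p = 0.0447) and with quantile normalization (0.80, adjusted p = 0.0321), and its adjusted p ranged from 0.0166 to 0.18 over 13 alternatives. Quantile normalization also gave a large minus small difference of -0.0587 and moved the median of all tested entries to 0.10. Upper-quartile scaling gave a ratio of 0.0940 for line 336.

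Leaving out 1 library gave 0 to 2 members called higher (*Mrpl28* and *Mrps18a* without line 233, *Mrpl1* and *Mrps17* without line 336) and 0 to 1 called lower (*Mrpl20*, without line 199). It gave 7 to 12 members apart lower (12 without MEC 3, 11 without line 233 and 11 without line 336) and 30 to 38 apart higher, while the shares of all tested entries also went from 18.7% to between 19.9% and 27.0% apart lower and from 18.5% to between 20.4% and 26.0% apart higher. The ratio of line 336 was 0.0869 (without MEC 3) to 0.224 and the small subunit median 0.27 (without line 199) to 0.35. Without any 1 of the MEC libraries, no member passed the adjusted p, and the share of all tested entries called was 2.09% to 3.85%, against 9.9% with all 6. That share was 15.8% without line 199, 8.26% without line 233 and 7.66% without line 336. Counting members with no joined entry, overlap on the other strand or near-identical pseudogene, chosen after seeing the data, left 16 apart higher and 2 lower of 34.

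Of 29 named members, 5 changed sign in some alternative. *Mrpl33* was at 0.0286 with array weights and at -0.239 to 0.103 with 1 library left out. *Mrps5* was at -0.0694 with array weights, -0.0303 with quantile normalization and -0.0293 with upper-quartile scaling, and at -0.256 to 0.281 with 1 library left out. *Mrps6* was at 0.0221 with array weights and at -0.0419 to 0.0510 with 1 library left out. *Mrpl53* was at -0.0386 with quantile normalization and -0.0363 with upper-quartile scaling, and at -0.0749 to 0.147 with 1 library left out. *Mrpl54* was at -0.227 without line 336 and 0.426 without line 233. The cause of these changes was not tested. No paired analysis was possible because the MEC pools and the tumor lines came from different mice.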
